A study of Homo sapiens with 8 samples.

Results

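The regions described here are the RNA stretches that came down with the C459A trapping mutant of NOP2/NSUN1. They are all peaks of the deposited C459A list, in which the FLAG IP was set against its size-matched input (SMInput). The C459A and WT lists hold 538 peaks together, 251 of them in the WT list and all others in the C459A list described here. All of them were counted, and the WT list was not used to choose them. The peaks named with values were partly chosen by those values. Each peak was put in an RNA class by the reference it lies on and by the authors' annotation. The C459A IP and the C459A SMInput came from HEK293T cells (a line derived from human embryonic kidney) that received a plasmid encoding FLAG-tagged NOP2/NSUN1 C459A and were collected after 40 h. The cells were lysed without UV light. Protein and RNA complexes were taken from the membrane above the size of NOP2/NSUN1, after FLAG immunoprecipitation for the IP and without it for the SMInput, with 2 replicates of each. The WT IP and WT SMInput were made in the same way from cells that received the WT plasmid, again with 2 replicates each. The protein was supplied on a plasmid, and the labels name no removal of the cells' own NOP2.

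NOP2/NSUN1 is a nucleolar methyltransferase of the NSUN family, which places m5C on RNA. During catalysis a cysteine of the enzyme bonds covalently to the target cytosine, and a second cysteine, the residue changed in C459A, is needed to let the methylated RNA go. The mutant therefore stays attached to RNA that it has acted on, and it can also be recovered with RNA that it binds without a covalent bond. In budding yeast, Nop2 methylates a cytosine of 25S rRNA whose human counterpart is C4447 of 28S rRNA, and the protein is required for making the large ribosomal subunit.

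Each peak carries 1 log2 fold change (IP over SMInput) and 1 adjusted p, both from the authors' peak caller and both drawn from the 2 IP and 2 SMInput libraries together. The list gives no value per replicate, so no spread between replicates stands behind the values below and no test was added. Read counts are not in the list, and the depth of the libraries is unknown. The list was restricted to peaks enriched 2-fold or more with an adjusted p under 0.05, so an RNA without a peak was not shown to be unbound. The lowest listed log2 fold changes were 1.03 on the 28S of RNA45SN2 and 1.05 on the 28S of RNA45SN1, and the highest adjusted p-values were 0.0492 on L1PREC1 and 0.0459 on SNORA74A. The same reads can align to near-identical copies of rRNA, 5S pseudogenes, tRNAs and snoRNAs, so peaks are not independent observations.

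The stretch of 28S that holds C4447 is shown first because 3 of the 10 largest fold changes lay on short chromosome peaks that resemble it. The first line is 28S of the precursor copy RNA45SN1 at chr21:8445549-8445649 on the plus strand (hg38, sequence and rRNA positions by RefSeq), with C4447 in capitals. C4447 is the study's numbering, and in this copy the base is position 4444 of 28S. In the other lines, capitals mark letters equal to this 28S at the closest ungapped placement and lower case marks letters that differ. The peaks are chr20:30512183-30512228 on the minus strand (pseudogene LOC110467526), chr19:43407118-43407154 on the plus strand (pseudogene LOC110467528), chr14:101596632-101596662 on the plus strand (intergenic), chr4:35496075-35496107 on the minus strand (intergenic) and chr1:91387220-91387275 on the minus strand (within HFM1).
28S around C4447: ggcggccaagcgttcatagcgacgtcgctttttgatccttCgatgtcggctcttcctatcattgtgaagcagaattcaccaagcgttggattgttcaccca
LOC110467526: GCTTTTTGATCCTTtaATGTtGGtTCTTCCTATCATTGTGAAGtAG
LOC110467528: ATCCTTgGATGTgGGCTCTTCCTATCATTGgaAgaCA
Intergenic, chromosome 14: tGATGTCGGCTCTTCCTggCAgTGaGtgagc
Intergenic, chromosome 4: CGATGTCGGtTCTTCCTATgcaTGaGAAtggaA
HFM1: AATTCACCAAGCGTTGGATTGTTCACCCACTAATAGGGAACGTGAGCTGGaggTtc

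At this placement the intergenic peak on chromosome 14 began at the position of C4447, where it has another letter, and 21 of its 31 bases equalled 28S. It had the largest log2 fold change of all C459A peaks, 10.24 (the authors' adjusted p = 1.81e-07). The intergenic peak on chromosome 4 began exactly on the C of C4447, with 24 of 33 bases equal, and had a log2 fold change of 8.05 (at the authors' adjusted p = 0.00049), the 7th largest. LOC110467528 began 6 bases before C4447 with 31 of 37 bases equal, and its log2 fold change of 8.95 (at the authors' adjusted p = 6.72e-06) was the 3rd largest. In the peaks on chromosomes 14 and 4 the likeness was strongest at the 5′ end and mostly ended after 17 and 19 bases.

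The peak on LOC110467526 began 14 bases before C4447, with 41 of 46 bases equal and a log2 fold change of 4.57 (at the authors' adjusted p = 0.00108). The HFM1 peak lay just downstream, from 32 bases after C4447, with 51 of 56 bases equal and a log2 fold change of 4.39 (at the authors' adjusted p = 0.000365). On a 28S reference itself, the peak from base 4251 to base 4572 of RNA45SN1 spanned the site at a log2 fold change of 3.65 (at the authors' adjusted p = 1.23e-21). Neither these 5 chromosome peaks nor the 28S reference peak over C4447 overlapped a peak of the WT list, while 71.8% of all C459A peaks did. The WT list holds no values under its thresholds, so a difference between C459A and WT was not tested. A likeness of 16 to 19 bases, as on chromosomes 14 and 4, is short, and whether the reads behind these peaks came from 28S was not tested.

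**Figure D1:**
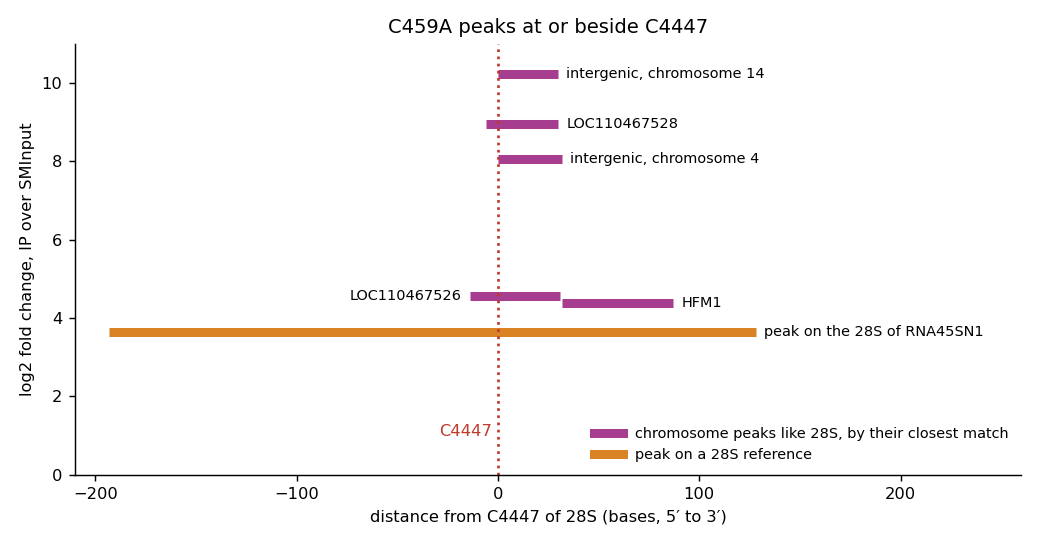
C459A peaks at or beside C4447 of 28S. The x axis gives the distance from C4447 in bases and the y axis the log2 fold change (IP over SMInput), 1 bar per peak from its start to its end, with chromosome peaks (purple) drawn at their closest placement on 28S. The peaks on chromosomes 14 and 4 start at C4447 and reach 10.24 and 8.05, above the wider peak on the 28S reference at 3.65.

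Over the whole list the median log2 fold change was 3.63, and the peaks ranged from 1.03 to 10.24. A log2 fold change of at least 2, which is 4-fold, was held by 244 peaks (85.0%), and an adjusted p under 0.01 by 230 (80.1%). Box C/D snoRNAs had the most peaks, 71 (24.7% of the list, 95% exact binomial interval 19.9 to 30.2%, counting error only), followed by 5S pseudogenes with 52 (18.1%, 13.8 to 23.1%), rRNA with 48 (16.7%, 12.6 to 21.6%) and nuclear tRNAs with 36 (12.5%, 8.94 to 16.9%). With each RNA or reference counted once, rRNA came after nuclear tRNAs, with 11 (5.24%) against 33 (15.7%). A further 33 peaks lay at other places on chromosomes or unplaced sequences. Of these, 18 matched 45S and 3 matched 5S, so the ranking holds only for the classes as annotated. A number of peaks is not an amount of RNA, and the study found most C459A reads on rRNA. L1 elements had 13 peaks, mitochondrial RNAs 11, H/ACA snoRNAs 7 and the NOP2 mRNA 6. The 7SL pseudogenes and the other repeats had 3 each, vault RNA 2, and a 5.8S and a U6 pseudogene 1 each.

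The class medians of the log2 fold change are given as a description, with no test. They were 5.42 for 5S pseudogenes (order-statistic 95% interval over peaks 4.50 to 5.85), 4.77 for the other chromosome peaks (4.37 to 6.11), 3.76 for box C/D snoRNAs (3.47 to 4.17) and 3.21 for nuclear tRNAs (2.78 to 4.32). They were lower for rRNA at 2.67 (1.82 to 3.21), for mitochondrial RNA at 2.48 (1.15 to 5.12) and for L1 elements at 1.87 (1.67 to 2.04). With each RNA or reference counted once, by its peak of smallest adjusted p, the rRNA median was 3.68. That of box C/D snoRNAs was also 3.68 and that of nuclear tRNAs 3.19. Within rRNA the rank correlation of log2 fold change with −log10 adjusted p was 0.49 (Spearman), so this choice tends to take higher fold changes. Of the rRNA peaks 64.6% were at least 4-fold and 97.9% had an adjusted p under 0.01, while of the L1 peaks 23.1% and 15.4% did. For 5S pseudogenes the shares were 96.2% and 94.2%, for box C/D snoRNAs 94.4% and 78.9%, and for nuclear tRNAs 91.7% and 80.6%.

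**Figure D2:**
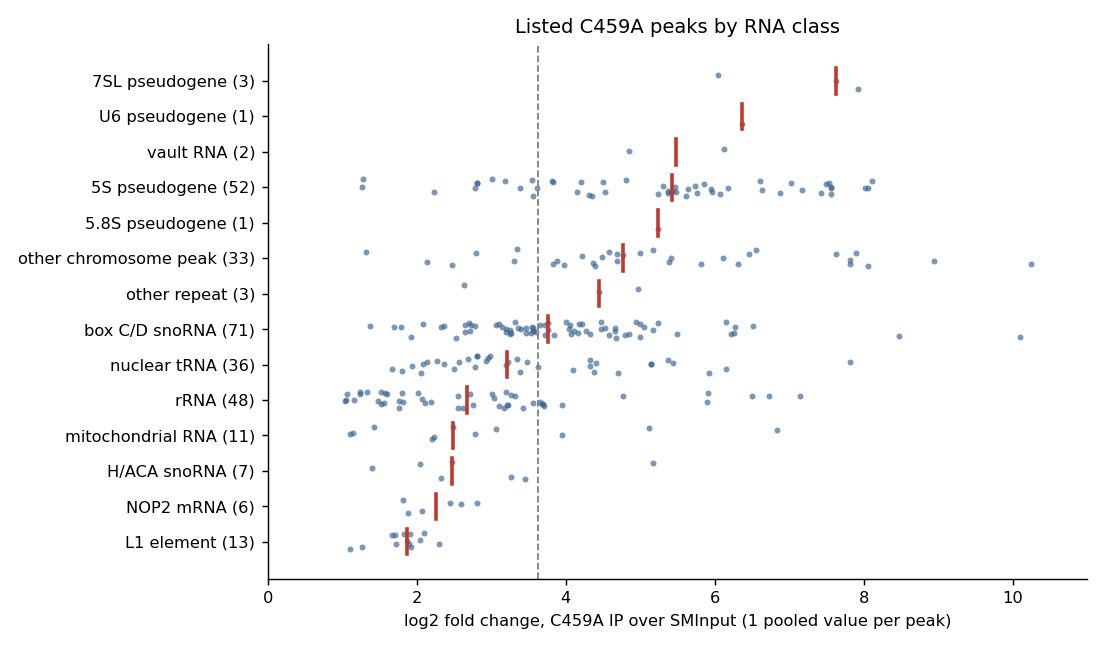
The listed C459A peaks by RNA class, ordered by median, with the number of peaks in brackets. The x axis is the log2 fold change (IP over SMInput), each point is 1 peak, red bars are class medians and the dashed line is the median of all peaks (3.63). The 5S pseudogenes have a median of 5.42 and rRNA one of 2.67, and the highest point, at 10.24, is a chromosome peak.

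The peaks with the largest fold changes and those with the smallest p-values were of different kinds. The 10 largest fold changes comprised 4 chromosome peaks, 3 peaks on 5S pseudogenes, 2 on SNORD12C and 1 on a 7SL pseudogene, with a median width of 36.5 bases. The 10 smallest adjusted p-values comprised 5 rRNA peaks, 2 peaks on MT-TL1 and 1 each on vtRNA1-2, SNORD3A and RNA5SP141, with a median width of 224.5 bases. Over all listed peaks, the rank correlation of width with log2 fold change was -0.62 and that of width with −log10 adjusted p was 0.26 (Spearman, a description over peaks that share libraries). Median log2 fold changes by width were 6.46 for the 19 peaks of up to 30 bases, 5.14 for the 65 of up to 60, 3.81 for the 113 of up to 120, 2.55 for the 53 of up to 240 and 1.80 for the 37 wider ones. The median of the authors' adjusted p was 0.00716 for the narrowest group and 4.56e-05 for the widest. Every listed peak had to pass both thresholds, so the filter itself can shape these relations, which was not tested. Classes differ in width, with medians of 42 bases for other chromosome peaks, 55 for nuclear tRNAs, 79 for box C/D snoRNAs and 242.5 for rRNA, and within 5S pseudogenes alone the correlation of width with fold change was -0.74.

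**Figure D3:**
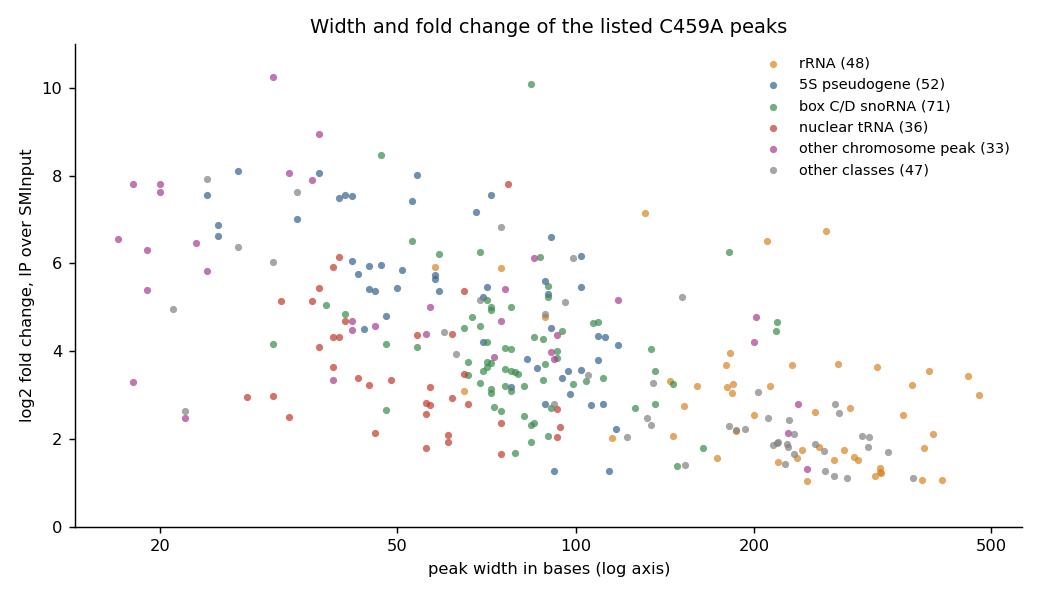
Width (x axis, bases, log axis) and log2 fold change of IP over SMInput (y axis) of the listed C459A peaks, 1 point per peak, coloured by class. Among these peaks, all of which passed the thresholds of the list, narrow ones have the higher values, with a median of 6.46 up to 30 bases and 1.80 above 240 bases.

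The 45S precursor is cut into 18S, 5.8S and 28S, and its external (5′ETS and 3′ETS) and internal (ITS1 and ITS2) spacers are removed. Of the 48 rRNA peaks, 37 were on rRNA references of their own and 11 on 45S copies of the genome. With all but the 5S peak of these and 18 of the 33 other chromosome peaks, which match 45S, 65 peaks could be placed on the precursor from the positions that RefSeq gives. By midpoint, 25 of them lay in 28S, 23 in the 5′ETS, 8 in ITS1, 7 in ITS2, 1 in 18S and 1 in the 3′ETS. The 18S peak was an intergenic one on chromosome 21 (8988451 to 8988541), at a log2 fold change of 3.98 (at the authors' adjusted p = 0.00452), and 90 of its 91 bases equalled 18S.

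The 5′ETS peaks had a median log2 fold change of 3.55 and a range of 1.24 to 7.14. The highest was at bases 3113 to 3243 of RNA45SN3 (7.14, the authors' adjusted p = 0.000154), followed by bases 2615 to 2878 of the same copy (6.73, adjusted p = 6.47e-35). On the genome, a peak over bases 2372 to 2581 of RNA45SN4 had 6.50 (the authors' adjusted p = 5.20e-24). The smallest adjusted p of any rRNA peak, 7.46e-45, was at bases 2376 to 2606 of that copy's own reference, at a log2 fold change of 3.68. The narrowest rRNA peak, which gives the closest place within the 5′ETS, is printed here, from chr21:8392298-8392355 on the plus strand (hg38), the stretch just after the highest 5′ETS peak of RNA45SN3, with the whole peak in capitals. It had a log2 fold change of 5.91 (at the authors' adjusted p = 2.92e-26) and a G and C share of 91.4%. Over the 47 rRNA peaks with a sequence this share had a median of 82.2%, and the peak on 28S that spans C4447 was the lowest at 49.1%.
5′ETS of RNA45SN3: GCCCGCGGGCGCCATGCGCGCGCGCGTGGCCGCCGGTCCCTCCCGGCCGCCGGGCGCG

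The peaks of the internal spacers had lower medians than those of the 5′ETS. In ITS1 the 8 peaks had a median log2 fold change of 1.97, from 1.24 on RNA45SN2 to 3.95 on the genome copy of RNA45SN4. In ITS2 the 7 peaks had a median of 2.62 and reached 3.26 at bases 6794 to 6977 of RNA45SN4 (the authors' adjusted p = 2.45e-12). The 3′ETS peak, on RNA45SN4, had 3.21 (the authors' adjusted p = 0.00459). The 25 placed 28S peaks had a median of 3.17, and 20 of them overlapped a WT peak (71.8% of all listed peaks did). Those without a WT overlap were the 28S reference peak over C4447, LOC110467528, HFM1 and the intergenic peaks on chromosomes 14 and 4. Away from C4447, the highest placed 28S peaks were AAMDC at 5.41, Mir6087 at 5.17 and UNC45B-AS at 5.00, chromosome peaks whose sequences match 28S at identities of 97.4%, 98.2% and 96.5%.

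**Figure D4:**
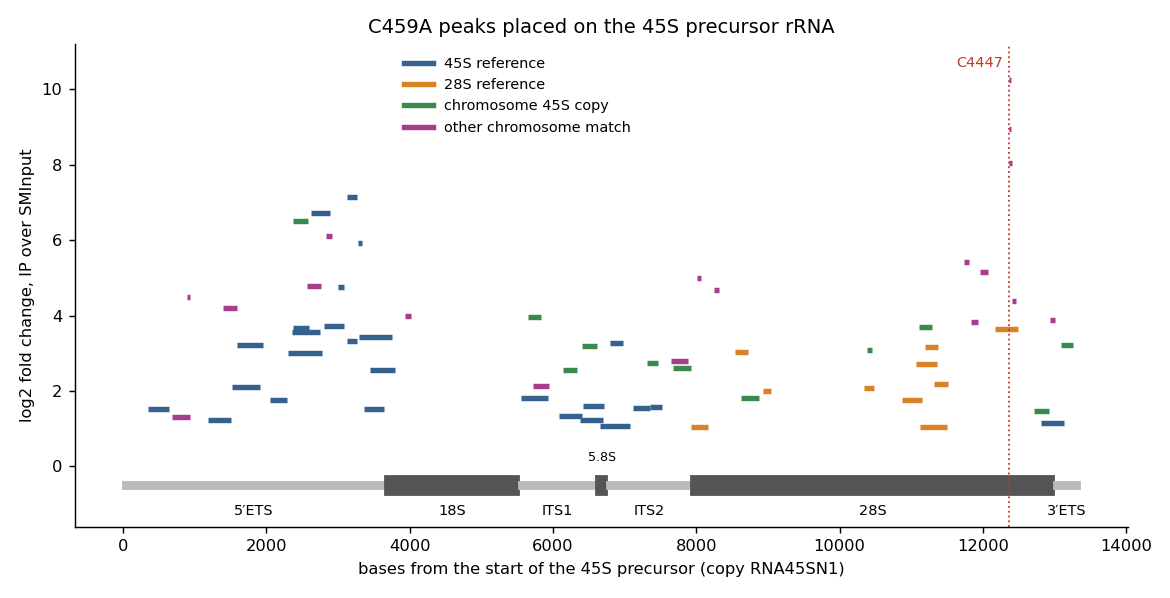
C459A peaks on the 45S precursor rRNA. The x axis is the distance in bases from the start of the copy RNA45SN1, to which the other copies were scaled region by region, and the y axis is the log2 fold change (IP over SMInput). Each bar is 1 of 65 peaks, coloured by the kind of reference it was listed on. The 5′ETS bars reach 7.14, and the ITS1 and ITS2 bars stay at or under 3.95. The highest bars, up to 10.24, are short chromosome peaks drawn at C4447 (dotted line) by their closest match, a likeness only. The 28S reference peak that spans C4447 stands at 3.65.

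5S rRNA is the small RNA of the large subunit that RNA polymerase III transcribes, and the 52 peaks on 46 of its pseudogenes shared a stretch of it. In local alignments to 5S, the aligned part of all 52 peaks held bases 65 to 79, and that of 21 held base 20. The aligned part ended between bases 80 and 92 for 48 of the 52, which is where the likeness to 5S ended and not always the peak. In 13 peaks at least 10 further bases followed the aligned part, up to 27, and 13 of the 46 peaks on pseudogene transcripts ended past base 100 of the transcript. The 21 peaks aligned from within the first 5 bases had a median log2 fold change of 3.61 and a median width of 102 bases. The 31 aligned from a later base had a median of 5.94 and a median width of 47 bases. The median identity to RNA5S1 over the aligned part was 97.7% over all 52, and whether reads of 5S itself lie behind these peaks was not tested.

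RNA5SP136 had the highest log2 fold change of the class, 8.10 (the authors' adjusted p = 0.00175), over bases 62 to 88 of its transcript. RNA5SP25 followed with 8.06 (the authors' adjusted p = 0.00322), over bases 53 to 89. The smallest p-values were those of RNA5SP141, at 4.32 (the authors' adjusted p = 2.31e-33), and RNA5SP145, at 2.80 (the authors' adjusted p = 2.14e-25), each from base 1 of its transcript. The lowest fold changes of the class, on the log2 scale, were 1.27 on RNA5SP389 and 1.28 on RNA5SP149. The peak listed as 5S rRNA itself covered bases 27 to 101 of its reference, with a log2 fold change of 5.90 (at the authors' adjusted p = 3.29e-10). A peak within the gene SMAD9, which matches bases 52 to 90 of 5S, had 3.35 (the authors' adjusted p = 0.00286). RNA5-8SP6, a pseudogene of 5.8S, was covered over bases 2 to 152 and had 5.24 (the authors' adjusted p = 1.36e-10).

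**Figure D5:**
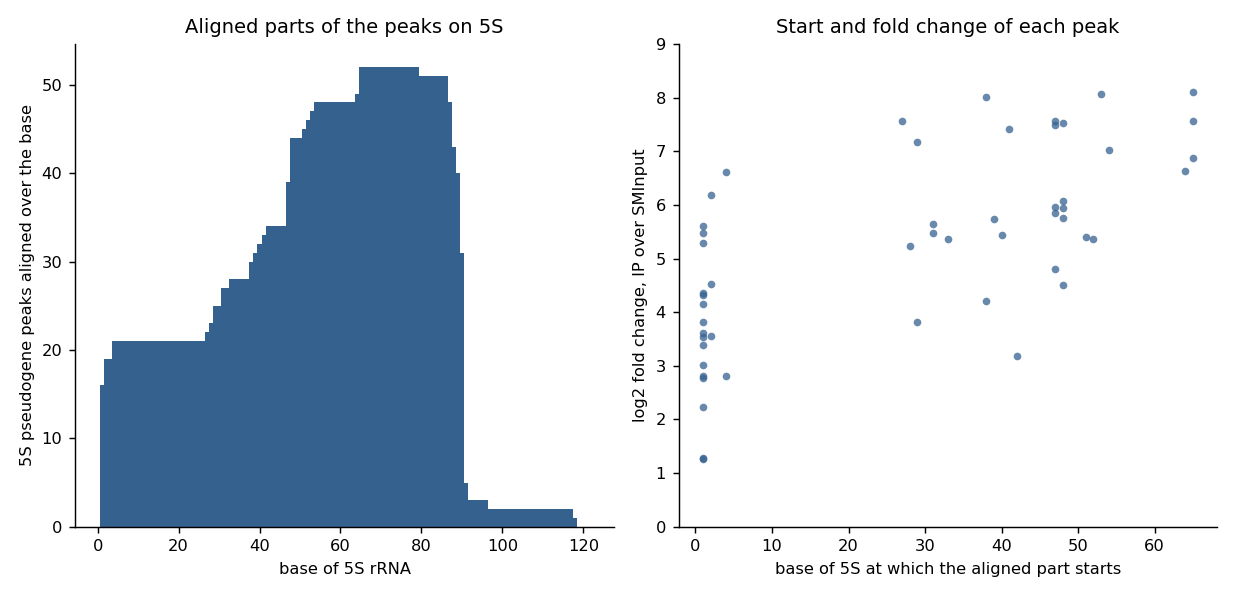
The 52 peaks on 5S pseudogenes aligned to 5S rRNA. The left panel counts, for each base of 5S (x axis), the peaks whose locally aligned part holds it (y axis), which reach 52 at bases 65 to 79, while bases of a peak that do not align are not drawn. The right panel plots the base at which each aligned part starts (x axis) against its log2 fold change of IP over SMInput (y axis), with a median of 3.61 for starts in the first 5 bases and 5.94 for later ones.

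Box C/D snoRNAs guide 2′-O-methylation of rRNA, and a few of them, U3, U8, U14 and U22, take part in cutting the precursor. The 71 peaks were on 62 RNAs. SNORD12C, which had the highest fold change of the class, is printed from chr20:49278940-49279028 on the plus strand (hg38), the annotated 89 bases, with its chromosome peak in capitals.
SNORD12C: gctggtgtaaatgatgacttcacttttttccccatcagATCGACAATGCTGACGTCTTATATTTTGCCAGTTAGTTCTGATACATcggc

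On its own transcript SNORD12C was covered from base 2 to base 85 and reached 10.10 (the authors' adjusted p = 8.08e-09). On chromosome 20 the peak in capitals, 47 bases at the 3′ side, had 8.47 (the authors' adjusted p = 0.000108). These were the 2nd and 4th largest values of the list. The other snoRNAs of the same host gene, the noncoding ZFAS1, were SNORD12 at 6.14 (the authors' adjusted p = 1.35e-12) and SNORD12B at 5.49 (the authors' adjusted p = 2.20e-16), so the 3 snoRNAs annotated in ZFAS1 were all listed and all above the class median of 3.76.

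By GENCODE, 55 of the 62 listed RNAs lie within 31 genes on the same strand, and 15 of these genes had 2 or more listed. In 6 of the 15 all annotated SNORDs were listed. Of these, RPL4 and RPL13A, which encode ribosomal proteins, hold 4 each, ZFAS1 holds 3, and RPS3, RPS12 and RPS13 hold 2 each. Genes without a listed SNORD were not counted, so no share over all annotated SNORDs is given. The RPL4 snoRNAs (SNORD16, SNORD18A, SNORD18B and SNORD18C) had a median log2 fold change of 3.48 and a range of 3.14 to 4.79. Those of RPL13A (SNORD32A, SNORD33, SNORD34 and SNORD35A) had a median of 2.45 and a range of 2.32 to 3.27, all below the class median. SNHG1, a noncoding host, had 4 of the 6 SNORDs counted here listed, from 2.65 for SNORD26 to 6.22 for SNORD28. NOP58, which itself encodes a core protein of box C/D particles, had 3 of 4 listed, with a median of 4.04. The lowest values were those of SNORD15A in RPS3 (1.38, the authors' adjusted p = 0.0423) and SNORD45C in RABGGTB (1.69, adjusted p = 0.0143).

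Among the snoRNAs of precursor cleavage, the U3 copies ranged from 1.79 on SNORD3D to 6.25 on the genome copy of SNORD3A (the authors' adjusted p = 3.68e-23). U14, which also guides a methylation of 18S, had 6 peaks, from 2.08 on SNORD14A (the authors' adjusted p = 0.0171) to 5.24 on SNORD14B (the authors' adjusted p = 3.03e-20), both in RPS13. SNORD14D was not listed while its neighbours in HSPA8, SNORD14C and SNORD14E, had 4.27 and 4.33. U8 had 4.06 on SNORD118 and 2.79 on a reference named U8 (the authors' adjusted p = 2.30e-13). U22, SNORD22, had 2.72. U13, not counted in this group, had 3.32 on its transcript. The H/ACA RNA U17 (SNORA73A and SNORA73B) was not listed.

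Most snoRNA peaks spanned the RNA. Of 65 peaks on snoRNA transcripts with a length in GENCODE, 52 covered at least 90% of it, 48 of 58 for box C/D and 4 of 7 for H/ACA RNAs. The exceptions had narrower peaks. SNORD3E had bases 1 to 31 of 216, SNORD38B bases 1 to 41 of 67 at a log2 fold change of 4.85, and SNORD28 bases 17 to 75 of 75. SNORD83A was listed from base 48 to base 95 of 95, and SNORD97 from base 49 to base 141 of 142. Among the H/ACA RNAs, which guide pseudouridylation, SNORA12 was covered over bases 1 to 69 of 147 and had the highest value, 5.17 (the authors' adjusted p = 0.0113). SNORA79B had 3.46, SNORA48 3.27, SNORA44 2.47, SNORA71D 2.33, SNORA17A 2.04 and SNORA74A 1.40, and 2 of the 7 had an adjusted p under 0.01 (28.6%, against 80.1% of all peaks).

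The tRNAs below are printed because their chromosome peaks lay towards the 3′ end. These are tRNA-Arg-TCG-1-1 at chr15:89335073-89335145 on the plus strand and tRNA-Phe-GAA-1-4 at chr12:124927843-124927915 on the minus strand (hg38), each 73 bases, with the part under the chromosome peak in capitals.
tRNA-Arg-TCG-1-1: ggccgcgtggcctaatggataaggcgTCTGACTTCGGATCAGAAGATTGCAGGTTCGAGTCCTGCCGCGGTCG
tRNA-Phe-GAA-1-4: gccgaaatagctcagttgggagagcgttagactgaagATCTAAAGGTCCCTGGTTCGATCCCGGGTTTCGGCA

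The peak on tRNA-Arg-TCG-1-1 began at base 27 and ran to base 80, past the 3′ end of the gene, with a log2 fold change of 4.37 (at the authors' adjusted p = 2.13e-18). That on tRNA-Phe-GAA-1-4 began at base 38 and ended at base 74, with 5.43 (the authors' adjusted p = 0.000724). Another 32 peaks lay on tRNA references not named as flanked, whose lengths are not in the files. These references can be longer than the tRNA. On that of tRNA-Arg-TCG-1-1 the peak ran from base 32 to base 96, although the gene has 73 bases. Bases are therefore counted on the reference and are not tRNA positions. By this count, 20 of the 32 peaks began at base 30 or later. Those for Arg-CCG all began at base 45. The 5 peaks for Gly-TCC began at bases 2 to 11 and ended at bases 85 to 95, and the 6 peaks for Pro-AGG and Pro-TGG were the ones that ended by base 55.

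By anticodon, the 7 peaks for Arg-TCG centred on a median of 3.19 (log2 fold change). Among them tRNA-Arg-TCG-3-1, over bases 20 to 96 of its reference, had 7.81 (the authors' adjusted p = 1.50e-24), the highest of the nuclear tRNAs. Arg-CCG had 3 peaks, from 3.35 on tRNA-Arg-CCG-1-1 (the authors' adjusted p = 3.64e-27, the smallest of the class) to 6.14 on tRNA-Arg-CCG-1-3. Phe-GAA had 6 peaks (median 3.86), Lys-TTT 5 (3.38), Gly-TCC 5 (2.27), Pro-TGG 3 (3.22) and Pro-AGG 3 (2.98). Asn-GTT, SeC-TCA, Ser-AGA and Ser-TGA had 1 each, at 2.09, 5.37, 1.94 and 4.40. The lowest were tRNA-Gly-TCC-2-2 at 1.67 (the authors' adjusted p = 0.0433) and tRNA-Phe-GAA-1-1 at 1.80 (the authors' adjusted p = 0.000167).

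MT-TL1, the mitochondrial leucine tRNA, and vtRNA1-2, a vault RNA of RNA polymerase III, held the smallest adjusted p-values and are printed over their chromosome peaks, chrM:3220-3315 and chr5:140718925-140719023, both on the plus strand (hg38), with the annotated RNA in capitals.
MT-TL1: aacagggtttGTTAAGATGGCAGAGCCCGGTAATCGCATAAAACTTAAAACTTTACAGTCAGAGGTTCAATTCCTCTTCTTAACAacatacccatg
vtRNA1-2: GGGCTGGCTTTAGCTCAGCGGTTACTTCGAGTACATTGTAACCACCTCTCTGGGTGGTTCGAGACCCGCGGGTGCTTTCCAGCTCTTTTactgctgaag

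The MT-TL1 peak on the mitochondrial genome extended past both ends of the tRNA and had a log2 fold change of 5.12 (at the authors' adjusted p = 4.61e-65), and on its own transcript the value was 6.83 (the authors' adjusted p = 1.31e-49). An intergenic peak on chromosome 15 from 60128341 to 60128363, at 6.46 (the authors' adjusted p = 2.26e-05), matched mitochondrial bases 3290 to 3307 at the 3′ end of MT-TL1, with 1 mismatch in 18 bases. MT-TW, the tryptophan tRNA, was covered from base 6 to base 68 and had 3.95 (the authors' adjusted p = 1.91e-10). The mitochondrial rRNAs had lower values. MT-RNR1 had 4 peaks, which together covered 91.2% of its 954 bases, at 2.23, 1.42, 2.79 and 2.21. MT-RNR2 had 4 peaks over 49.3% of its 1559 bases, from 1.10 to 3.07.

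The vtRNA1-2 peak covered the whole RNA and ended 10 bases past it on chromosome 5, with a log2 fold change of 6.12 (at the authors' adjusted p = 3.63e-15), and its transcript had 4.85 (the authors' adjusted p = 1.28e-48). A fixed group named m5C RNAs held 13 RNAs or tRNA families: 7 cytosolic tRNAs, MT-TM, MT-RNR1, 28S and vtRNA1-1, vtRNA1-2 and vtRNA1-3. Of these 13, 3 were listed: MT-RNR1, 28S and vtRNA1-2. The group's name does not establish m5C on each member. For vtRNA1-2 the study's bisulfite sequencing detected no m5C, and the study calls for further experiments on whether it is a methylation target. Of 17 other abundant small RNAs or families, among them RMRP, RPPH1, RN7SK, RN7SL1, the Y RNAs, the spliceosomal RNAs and TERC, 0 were listed. Neither count can be set against a share over all RNAs, because only RNAs with a peak are listed. Pseudogenes of 2 of these small RNAs were listed, over short stretches. RN7SL675P had 7.92, RN7SL310P 7.63 and RN7SL464P 6.04, with adjusted p-values from 0.00716 to 0.0158, and RNU6-826P, covered from base 1 to base 27, had 6.37 (the authors' adjusted p = 0.000234).

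The 6 peaks on the NOP2 gene, which encodes the immunoprecipitated protein, lay on the minus strand of chromosome 12 between 6557284 and 6566324 and had log2 fold changes from 1.81 to 2.81. The highest, at 6563081 to 6563172, lay on exon 9 (the authors' adjusted p = 0.00118), and the smallest p, 2.60e-05, was at 6561698 to 6561974 over exons 10 and 11 (2.59). The others had 2.44 on exon 15, 2.07 on exon 16, 1.88 on exon 5 and 1.81 over exons 13 and 14. Of the 1439 bases under these peaks, 1211 (84.2%) were exon, against 23.2% of the gene that is exon in its canonical transcript. All 1211 were coding. RNA from the plasmid and RNA from the cells' own gene cannot be told apart at these positions. None of the 6 overlapped a WT peak (71.8% of all listed peaks did).

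L1 elements, retrotransposons present in many copies, had 7 peaks on L1, 5 on L1PREC1 and 1 on L1PA3, with log2 fold changes from 1.10 to 2.30. The highest was at bases 2641 to 2821 of L1PREC1 (the authors' adjusted p = 0.0218), and the smallest p, 0.00415, at bases 4277 to 4611 of L1 (1.71). Of the 13, 12 overlapped a WT peak (71.8% of all listed peaks did). The other repeats were PRIMA4_I at 4.97, A_SimpleRepeat at 4.44 and HERV17 at 2.64, of 21, 60 and 22 bases.

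Of the 33 chromosome peaks outside these classes, 22 (66.7%) had an ungapped match to an rRNA or small RNA, in the sense of the RNA, whose whole length of at least 16 bases was 90% identical or more. The matches were 18 to 45S, 3 to 5S and 1 to mitochondrial RNA. Among the other 11, the best match of LOC110467526 was just under that limit over its whole length but holds an identical run of at least 18 bases, and with such runs counted too 23 of the 33 (69.7%) resembled one of these RNAs. This peak is not among those placed on the precursor. An identical run of at least 18 bases alone was held by 19 of the 33 (57.6%), while the 90% rule also took some shuffled pieces of 45S. Of the 11, 9 were at most 24 bases wide, and VLDLR-AS1 had the highest log2 fold change, 7.90 (the authors' adjusted p = 0.000649), and TBCA the lowest, 2.47 (the authors' adjusted p = 0.0264). A WT peak overlapped 17 of the 22 and 2 of the 11, beside 71.8% of all listed peaks.

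For 18 RNAs, 1 peak was listed on a chromosome and 1 on the RNA's own reference, and the pairs show how far the listed value of an RNA can move with the reference. The log2 fold change was higher on the chromosome for 12 of 18, and the size of the difference had a median of 1.31. The chromosome value exceeded the own-reference value by 2.77 for RNA5SP259 (8.01 and 5.24) and fell below it by 1.71 for MT-TL1 (5.12 and 6.83). SNORD118 (4.10 and 4.06) differed by 0.04. The adjusted p was smaller on the own reference for 17 of the 18, the exception being MT-TL1.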

How the data were processed

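miCLIP-sequencing libraries of HEK293T cells (2 IP and 2 SMInput for each of C459A and WT, 8 in all) were aligned by the authors to hg38 and to repetitive element families, and peaks were called with Peakachu. The submitters' processing notes also name cutadapt and fastp. Their versions were not given in the sources used here. In the lists, the authors deposited log2 values, the log2 of IP over SMInput per peak, and the −log10 of the adjusted p-value, which was turned back into a p-value here. Replicates are pooled in each value, and 0 columns of per-sample values were left aside. The lists were filtered by the authors at a fold change of 2 and an adjusted p of 0.05. All 76 peaks on chromosomes or unplaced sequences lie within hg38. Places and sequences come from RefSeq and GENCODE 44 (120 of the 124 transcript IDs in the list matched GENCODE), and the number 4447 was carried between 28S copies by their shared flanks.

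Chromosome peaks of no named class were compared with 5 copies of 45S, the mitochondrial genome and 598 small RNA sequences by ungapped blastn 2.17.0 (word size 7, e-value limit 100, plus strand, highest-scoring match with at least 90% identity over its length of at least 16 bases). The rule was tested on simulated data, where shuffled pieces of 45S also met it at times, so short matches are given as likeness only. 5S peaks were aligned locally with biopython 1.88, and the 5S sequence is not reported here. Intervals are exact binomial for shares and order-statistic for medians, at 95%, and cover counting over peaks only. Peaks counted as overlapping with at least 1 base in common on a reference and strand. Computation used python 3.11.15, numpy 2.4.6, scipy 1.17.1, pysam 0.24.0, samtools 1.23.1 and matplotlib 3.10.9.

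The classes, lists and RNAs named were chosen with earlier results of these data known. The rule for names took the 10 largest fold changes, the 10 smallest adjusted p-values, the extremes of each class, every member of small classes, RNAs on several references and fixed groups. LOC110467526, HFM1, SMAD9, TBCA and the peaks named for their place on 45S, a snoRNA or a tRNA lie outside it and were chosen after their values were seen.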

Additional observations from a re-analysis of the deposited data

How the results depend on the processing

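No paired analysis was possible because each peak has 1 value that pools the replicates, and for the same reason no replicate could be left out. Of 54 alternative values of 15 shares and medians, 44 stayed within the 95% interval of the main value. The alternatives are subsets or recounts of the same listed peaks, so this count does not measure independent support. The values outside the interval were as follows. Each RNA or reference was also counted once, by its peak of smallest adjusted p. The rRNA share was then 5.24% and its median log2 fold change 3.68, and the L1 share was 1.43%. Among peaks of at least 4-fold, the rRNA median was 3.23, the L1 share 1.23% with a median of 2.10, and the 5′ETS held 92.9% of the 45S reference peaks, against 65.4% in the main count. At an adjusted p under 0.01 the L1 share was 0.87%. Without peaks on chromosomes and unplaced sequences, the mitochondrial share was 1.42%. With 28S references and matching chromosome peaks added, an alternative chosen after seeing the data, the 5′ETS share was 35.4%. The fold threshold removes low fold changes by construction, while the medians of rRNA, nuclear tRNA and L1 were lower at an adjusted p under 0.01 than over all peaks. A count of chromosome peaks that resemble an rRNA by either match rule was also added after seeing the data. The depth of the libraries is unknown, and no value can say whether an RNA without a peak was missed for lack of reads.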

Other observations

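In 5 sets of peaks, 11 in all, the log2 fold change and the adjusted p were identical to every deposited digit although the peaks lie on different references. RNA5SP382, RNA5SP251 and RNA5SP290 all had a value of 7.56 (the authors' adjusted p = 0.00339). SNORD70 in NOP58 and SNORD4B in RPL23A shared 5.00 (the authors' adjusted p = 0.00114), and RN7SL310P and an intergenic peak on chromosome 6 shared 7.63 (the authors' adjusted p = 0.00716). LRP1B and ENSG00000286163 shared 7.81 (the authors' adjusted p = 0.0188), and RNA5SP325 on its chromosome and the flanked reference of tRNA-SeC-TCA-1-1 shared 5.37 (the authors' adjusted p = 0.0201). The list holds no read counts with which to examine these.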
